A study of Mus musculus with 5 samples.

Results

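The genes described here encode the proteins of the mitochondrial ribosome that carry the symbols Mrpl (large subunit) or Mrps (small subunit) followed by a number. They were chosen by symbol alone, with a minimum of 50 UMIs (unique molecular identifiers, each marking 1 captured RNA molecule) over 5 libraries. All 78 symbols of this form passed the minimum, 49 of them Mrpl and 29 Mrps, out of 55450 gene identifiers in the files, of which 17744 reached 50 UMIs. The libraries are single-cell libraries of the 10x Genomics 3′ kind from bone marrow of wild-type Balb/C mice aged 8 to 12 weeks. In all of them, cells had been enriched for c-Kit on magnetic beads and then sorted as negative for lineage markers and positive for c-Kit. LMPP (lymphoid-primed multipotent progenitors, Sca-1+CD34+Flt3+) and CMP (common myeloid progenitors, Sca-1-CD34+, low for CD16/32) have 1 library each. GMP (granulocyte-monocyte progenitors, Sca-1-CD34+, high for CD16/32) has 3 libraries, called biological replicates by the series, which does not say how many animals went into each.

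Mitochondria carry their own small genome, whose messenger RNAs encode core subunits of the respiratory chain and ATP synthase, and these are translated inside the organelle by a dedicated ribosome. Its ribosomal RNAs come from the mitochondrial genome, but all of its proteins are encoded in the nucleus, made in the cytosol and imported. Some of these proteins descend from bacterial ribosomal proteins and others are found only in mitochondria. The mitochondrial ribosome is distinct from the cytosolic ribosome, which has its own protein genes (Rpl and Rps). Haematopoietic stem cells are known for low protein synthesis and a mostly glycolytic metabolism, and progenitors for more active mitochondria.

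After filtering, the libraries held 7511 LMPP cells, 6880 CMP cells and 7334 to 9016 GMP cells, with 80116415 to 118176991 UMIs per library and medians of 9219 UMIs per cell in LMPP, 10047 in CMP and 10681 to 15069.5 in GMP. RNA of the sorted proteins followed the labels: scaled to each library's total as CPM, Flt3 was at 127 CPM in LMPP, 47.9 CPM in CMP and 3.90 to 4.79 CPM in GMP, and Fcgr3 (CD16) was at 2.92 CPM in LMPP, 10.2 CPM in CMP and 35.9 to 46.4 CPM in GMP. Any pair of libraries shared 13 to 33 barcodes, at most 0.399% of the smaller of the pair. GMP replicate 1 stood apart in its clusters: 46.4% of its cells fell in clusters without a name, against 20.9% and 15.8% in replicates 2 and 3. Results that change without it are given both ways.

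The 78 genes lie on 17 chromosomes, the most on chromosome 11 with 11 and chromosome 17 with 8. Their coding sequences are short, with a median of 582 nucleotides and a range of 261 to 1326. The deposited counts mark RNA ends, so they were not divided by length. Most of the genes were well covered, with a mean level over the libraries of up to 350.3 CPM and a median of 98.0 CPM. The exception is Mrpl53, a mitochondria-specific large-subunit protein, at 0.238 to 0.481 CPM. It overlaps another annotated gene on the same strand. The 10 most abundant members held 31.2% of the summed level. In 8 members an exon overlaps an exon of another gene on the same strand, among them Mrps6 with Slc5a3, Mrps24 with Urgcp and Mrps34 with Nme3. How such reads were assigned is not given in the sources used here.

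As a sum, RNA of the 78 genes was lowest in LMPP, intermediate in CMP and highest in every GMP library. Scaled to total UMIs, the sum was 6972 CPM in LMPP, 8213 CPM in CMP and 10818, 11042 and 10459 CPM in GMP replicates 1, 2 and 3. The GMP mean of 10773 CPM ± 294 (SD, n = 3) was 1.31 times the CMP value and 1.55 times the LMPP value. The distance from the CMP value to the nearest GMP library was several times the SD over GMP. With 3 libraries against 1, an exact permutation test cannot give p below 0.25, so no test was made of the sum. In cells, the median was 59 UMIs of these genes per cell in LMPP, 77 in CMP and 115, 141 and 158 in the GMP replicates, and these medians also follow the libraries' depth.

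The size of the step depended on the scaling and its order did not. TMM scaling, which sets the libraries so that most genes do not differ between them, used factors of 1.35 for LMPP, 1.09 for CMP and 0.851 to 0.902 for GMP. On that scale the GMP sum of 12248 ± 577 (SD, n = 3) was 1.62 times the 7559 of CMP and 2.37 times the 5163 of LMPP. A sum that does not depend on either scaling gave the same order. Per 1000 UMIs of 89 cytosolic ribosomal protein genes, UMIs of the mitochondrial genes numbered 22.9 for LMPP, 25.7 for CMP, and on average 34.8 ± 1.31 (SD, n = 3) for GMP.

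**Figure D1:**
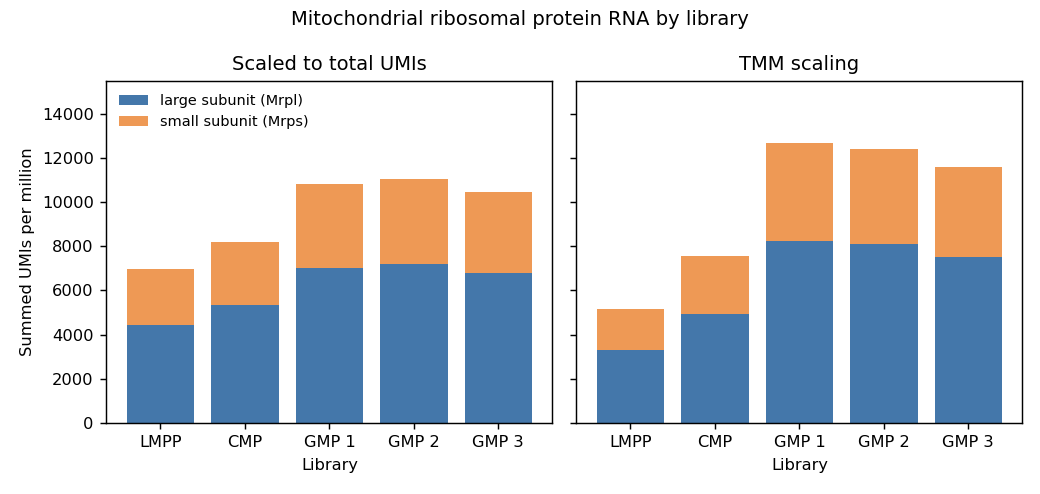
Summed CPM of the 49 Mrpl genes (blue) and the 29 Mrps genes (orange) in each library, scaled to total UMIs on the left and by TMM on the right. Both panels show LMPP lowest and the 3 GMP libraries highest, with the wider spread of groups under TMM (5163 against 12248) than under total UMIs (6972 against 10773).

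Cell cycle and immediate early genes were measured in the same libraries. Genes of S phase took 0.360% of UMIs in LMPP, 0.331% in CMP and 0.314% to 0.339% in GMP, and genes of G2 and M phase took 0.668%, 0.519% and 0.509% to 0.583%. In both shares CMP lay within the range of the GMP libraries and LMPP above it. Immediate early genes, which answer quickly to outside signals, took 1.14% of UMIs in LMPP, 0.778% in CMP and 0.204% to 0.291% in GMP, the reverse of the order of the sum, and their part in it was not tested. Each library is a mixture of cell classes, and classes are taken up below.

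Gene by gene, most members were higher in GMP than in either of the other populations. Against CMP, 54 of the 78 passed the test as higher and 0 as lower (edgeR quasi-likelihood test, TMM scaling, adjusted p under 0.05), where 13.6% of the 19719 genes tested were higher and 19% lower. At an unadjusted p under 0.05, 64 were higher and 1, Mrpl52, was lower. Shares of all genes at an unadjusted p were not counted, here or below, so such counts have no background. By DESeq2's Wald test with adjustment, 56 members were higher and 0 lower. The members' median difference was 0.65 on the log2 scale, against -0.04 over all genes tested. Against LMPP, 70 passed as higher and 0 as lower, where 26% of all genes were higher and 31.4% lower. Unadjusted, 71 were higher and 0 lower, and the Wald test gave 71 and 0. Here the median was 1.16, against -0.09 over all genes. The spread behind both tests comes from the 3 GMP libraries alone, and CMP and LMPP are assumed to vary as GMP does.

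Scaling by total UMIs moved the median of all genes to -0.33 against CMP and to -0.69 against LMPP, and fewer members passed. Against CMP, 32 were higher and 1 lower, with a background of 7.39% higher and 30.3% lower. All 32 were among the 54. Against LMPP, 53 were higher and 5 lower, with a background of 11.1% and 51.9%, and all 53 were among the 70. A change of scaling shifts all genes by about the same amount, so the members' median minus that of all genes is nearly fixed by construction, at 0.69 by TMM against CMP and 1.25 against LMPP. Leaving out GMP replicate 1 raised the count against CMP to 72 higher and 2 lower (Mrpl23 and Mrpl52). Of the 19599 genes then tested, 4362 were higher and 4920 lower, against 2676 and 3755 of 19719 with all 3 replicates. Leaving out replicate 2 lowered the members' count to 40, where 2043 of 19454 genes were higher. The counts over all genes thus moved in the same direction. The members' median TMM difference stayed near its value, at 0.62 and 0.66.

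Both comparisons use the same GMP libraries and are set side by side for that reason only. By TMM, 53 members were higher against both populations, 17 against LMPP only, 1 (Mrps31) against CMP only and 7 against neither. The share of all genes higher against both was not counted, though it cannot exceed the 13.6% that were higher than in CMP. In 71 members all 3 GMP libraries lay above CMP, where 35.8% of all genes tested did so. In 73 they lay above LMPP, where 40.4% of all genes did. All 3 lay below CMP in 1 member, Mrpl52 (42.7% of all genes) and below LMPP in 0 (47.2%). By total UMIs they lay above CMP in 59 members (20.5%) and above LMPP in 67 (21.3%), and below in 6 (59.9%) and 8 (68.5%).

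**Figure D2:**
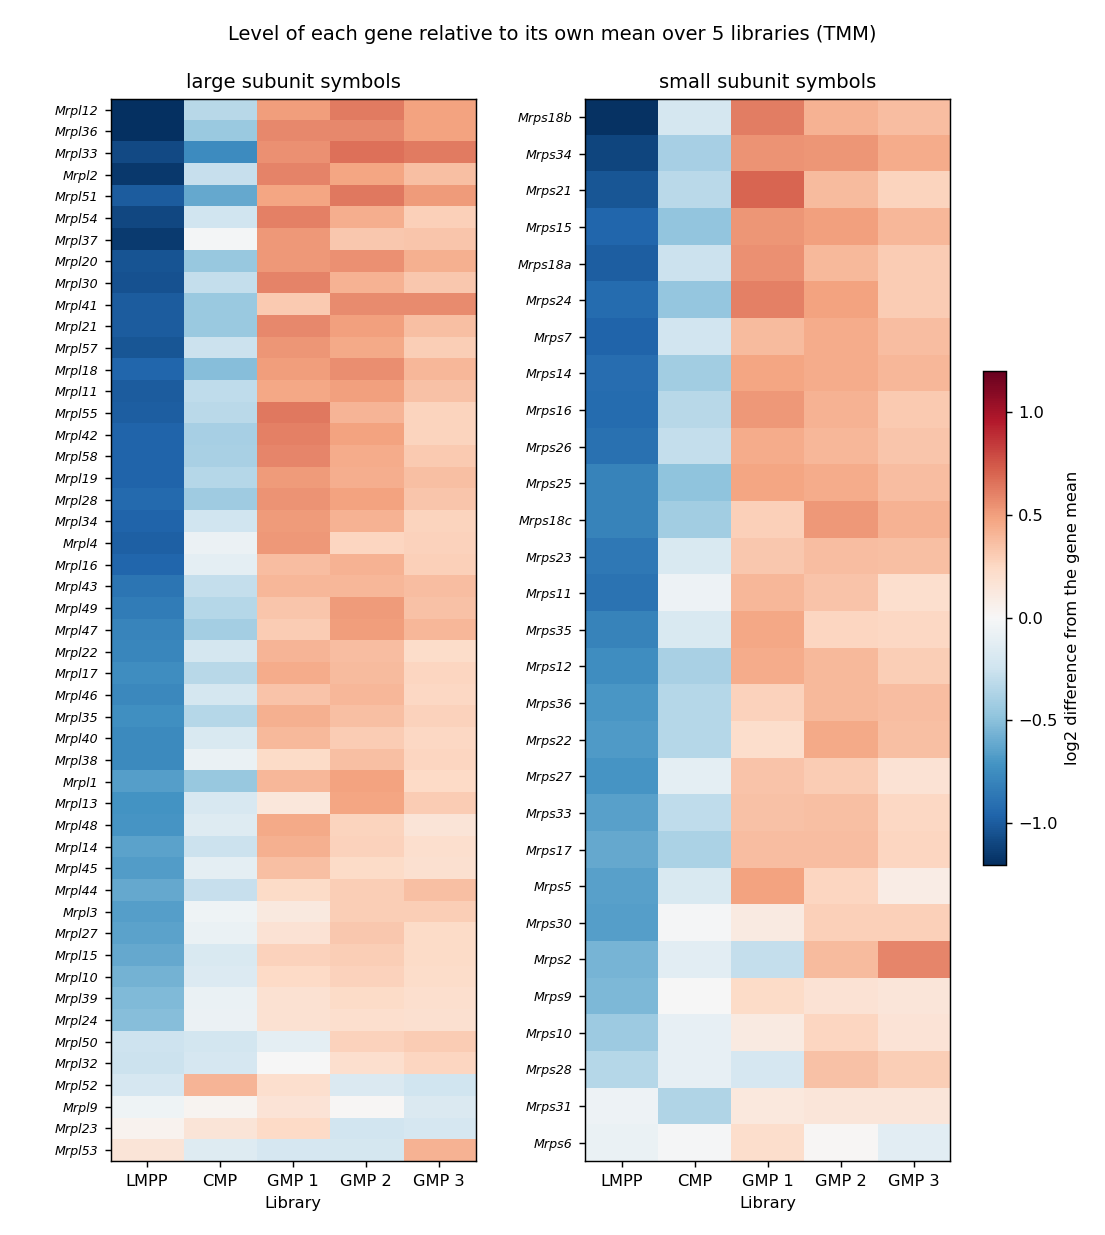
TMM-scaled level of each gene in each library as the log2 difference from that gene's mean over the 5 libraries, with Mrpl genes on the left and Mrps genes on the right, ordered by the GMP against LMPP difference. Most rows run from blue in LMPP to red in GMP, and the lowest rows, such as Mrpl52, Mrpl9, Mrpl23 and Mrps6, do not.

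Large-subunit genes included the largest differences from CMP. Mrpl33 (chr5:31596935-31664384, GRCm38), which has a bacterial counterpart, was at 203 CPM in LMPP, 206 CPM in CMP and 398, 449 and 444 CPM in the GMP replicates. LMPP and CMP were thus nearly level, and every GMP library was far above both. The TMM difference was 1.37 ± 0.14 (log2, SE) from CMP (adjusted p = 0.000316) and 1.70 ± 0.15 from LMPP (adjusted p = 6.5e-05). Mrpl51 (chr6:125191801-125196269), a protein found only in mitochondria, was at 104 CPM in LMPP, 109 CPM in CMP and 183, 213 and 198 CPM in GMP. It differed by 1.16 ± 0.14 from CMP (adjusted p = 0.000655).

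Against LMPP the largest difference was that of Mrpl12 (chr11:120484613-120489065), which forms the flexible stalk that recruits translation factors to the large subunit. Its level was 185 CPM in LMPP, 288 CPM in CMP and 403, 454 and 421 CPM in GMP, so that CMP lay between the others without overlap. The difference from LMPP was 1.82 ± 0.15 (adjusted p = 5.4e-05) and that from CMP 0.87 ± 0.14 (adjusted p = 0.00272). Mrpl36 (chr13:73328513-73332178), one of the smallest ribosomal proteins, was at 123 CPM in LMPP, 167 CPM in CMP and 266, 276 and 264 CPM in GMP. Its differences were 1.75 ± 0.14 from LMPP and 0.99 ± 0.14 from CMP. Mrpl37, a mitochondria-specific protein, showed another pattern, at 17.5 CPM in LMPP, 30.7 CPM in CMP and 35.1, 32.1 and 32.6 CPM in GMP. It was higher in GMP than in LMPP (1.54 ± 0.16) but did not pass against CMP (0.42 ± 0.14, adjusted p = 0.058).

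The other large-subunit genes with large differences kept the same order of populations. Mrpl18, a protein of the central protuberance, was at 229 CPM in LMPP, 251 CPM in CMP and 390.1 to 429 CPM in GMP. Mrpl20 was at 151 CPM, 181 CPM and 276 to 296 CPM in the same order, and Mrpl2, which lies beside the peptidyl transferase centre, at 72.2 CPM, 106 CPM and 138 to 153 CPM. The abundant Mrpl30 (198 CPM, 271 CPM and 343 to 390.2 CPM) and Mrpl34 (205 CPM, 272 CPM and 319 to 357 CPM) differed less from CMP, by 0.74 ± 0.16 and 0.64 ± 0.15. By total UMIs Mrpl34 no longer passed against CMP (0.33, adjusted p = 0.0774). Mrpl21, Mrpl41 and Mrpl54 also had GMP levels above both other libraries in all 3 replicates.

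Among small-subunit genes the largest difference from CMP was that of Mrps15, below those of Mrpl33 and Mrpl51. Mrps15, a homologue of a bacterial protein that binds ribosomal RNA early in assembly, was at 131 CPM in LMPP, 147 CPM in CMP and 231, 234 and 223 CPM in GMP. Its difference from CMP was 0.95 ± 0.14 (adjusted p = 0.00151). Mrps24 was at 208 CPM in LMPP, 230.2 CPM in CMP and 326 to 377 CPM in GMP, and differed by 0.93 ± 0.16 from CMP. Mrps25 (0.92 ± 0.13) was close to it. The largest differences from LMPP were those of 2 mitochondria-specific proteins, Mrps18b and Mrps34. Mrps18b rose from 46.3 CPM in LMPP and 73.5 CPM in CMP to 91.0 to 102 CPM in GMP (1.66 ± 0.16 from LMPP, adjusted p = 0.000101). Mrps34 was at 73.3 CPM, 96.0 CPM and 143 to 149 CPM (1.61 ± 0.14 from LMPP, adjusted p = 6.11e-05).

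**Figure D3:**
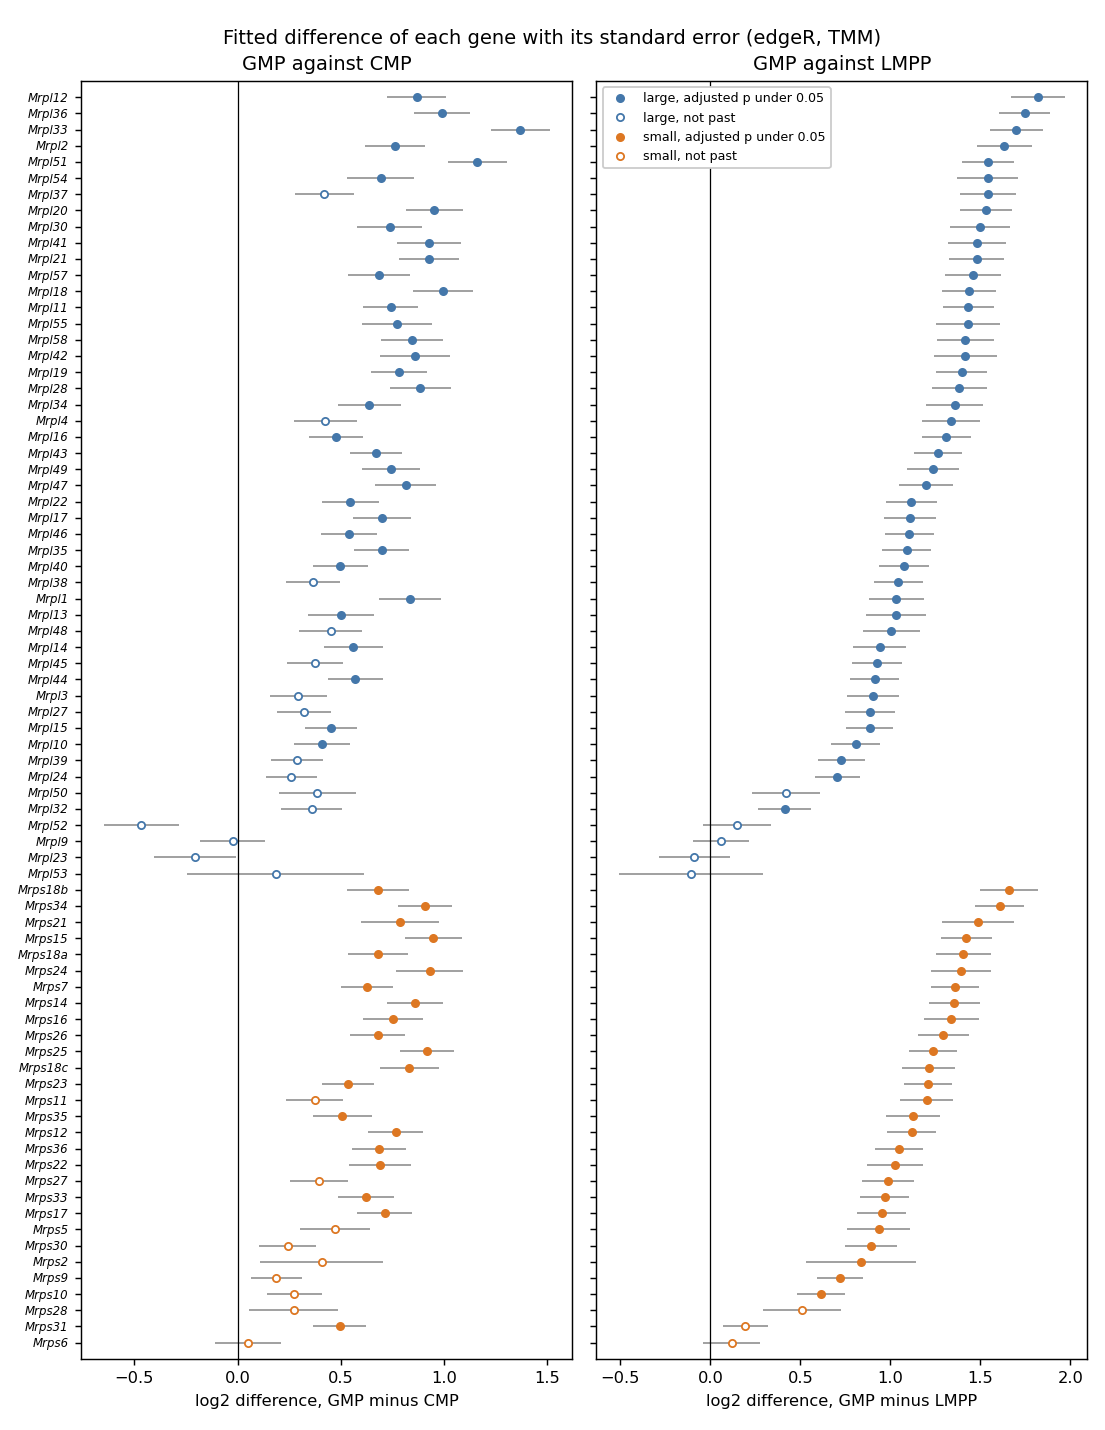
TMM log2 difference of GMP from CMP (left) and from LMPP (right) for each of the 78 genes, with its standard error as a bar, Mrpl in blue and Mrps in orange. Filled points passed the edgeR test at an adjusted p under 0.05 (54 genes against CMP and 70 against LMPP), open points did not, and no filled point lies below 0.

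The counts were also taken by subunit and by the proteins' origin, with no test between these groups. Against CMP, 34 of 49 Mrpl genes and 20 of 29 Mrps genes were higher, with medians of 0.64 and 0.68. Against LMPP the counts were 44 of 49 and 26 of 29, with medians of 1.20 and 1.13. Of 28 large-subunit proteins with bacterial counterparts, 21 were higher than in CMP and 26 than in LMPP. Of 21 found only in mitochondria, 13 and 18 were. Of 16 small-subunit proteins with bacterial counterparts 9 and 14 were higher, and of 10 small-subunit proteins found only in mitochondria 9 and 9. Mrps18a and Mrps30, whose proteins sit in the large subunit despite their symbols, and Mrps36, now known as a component of the oxoglutarate dehydrogenase complex, were all higher than in LMPP. Across the 78 genes, longer coding sequences went with a lower level (Spearman rho = -0.49) and weakly with a smaller difference from CMP (rho = -0.32) and LMPP (rho = -0.23). These describe genes, which share libraries and are not replicates.

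The 7 members that passed in neither comparison were Mrpl9, Mrpl23, Mrpl50, Mrpl52, Mrpl53, Mrps6 and Mrps28. By TMM, Mrpl50 (0.39 and 0.42 from CMP and LMPP) and Mrps28 (0.27 and 0.51) had the direction of the rest. By total UMIs the values were 0.09 and -0.19 for Mrpl50 and -0.03 and -0.10 for Mrps28. The genes described next were singled out after their values were seen. Mrpl52 (chr14:54426909-54429756), a mitochondria-specific protein, was at 231 CPM in LMPP, 285 CPM in CMP and 194, 155 and 151 CPM in GMP. It was highest in CMP, and every GMP library lay below both others by total UMIs. By total UMIs it fell by 0.78 on the log2 scale from CMP (adjusted p = 0.00688) and by 0.47 from LMPP (adjusted p = 0.0329). By TMM its difference was -0.47 ± 0.18 from CMP (adjusted p = 0.0859) and 0.15 ± 0.19 from LMPP, so its direction against LMPP depends on the scaling. Without GMP replicate 1 the TMM difference from CMP was -0.61 (adjusted p = 0.00553).

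Mrpl23 (chr7:142532686-142540747), which lies near the exit of the nascent peptide tunnel, was at 29.7 CPM in LMPP, 26.0 CPM in CMP and 21.5, 16.2 and 16.8 CPM in GMP. Mrpl9 was at 63.0 CPM, 53.7 CPM and 46.1, 43.4 and 38.7 CPM, and Mrps6 at 59.3 CPM, 49.99 CPM and 45.7, 41.6 and 38.2 CPM. In these 3 genes the GMP libraries were the lowest by total UMIs, the reverse of the sum. They fell against LMPP by 0.71, 0.56 and 0.50 on that scale (adjusted p = 0.0103, 0.00928 and 0.0156). By TMM the differences were -0.09 ± 0.20, 0.06 ± 0.16 and 0.12 ± 0.16, none of which passed. Without GMP replicate 1, Mrpl23 passed as lower by TMM, with differences of -0.26 from LMPP (adjusted p = 0.0267) and -0.36 from CMP (adjusted p = 0.0151). Mrps31 was the other gene that passed as lower in GMP than in LMPP by total UMIs, at 45.3 CPM in LMPP, 29.6 CPM in CMP and 32.4, 34.2 and 34.7 CPM in GMP. By TMM its GMP level passed the test against CMP (0.49 ± 0.13, adjusted p = 0.0209) but not against LMPP (0.19 ± 0.13, adjusted p = 0.216).

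Replicate 1 also differed from the other GMP libraries in single genes. Mrps28 was at 33.7 CPM there against 51.6 and 50.4 CPM in replicates 2 and 3, and Mrps2 at 9.02 CPM against 14.9 and 17.5 CPM. The coefficient of variation over the GMP libraries had a median of 5.72% over the members and reached 31.4% in Mrps2.

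The stretch before the members' start sites was searched for motifs known from promoters of this kind. RefSeq promoters (GRCm38.p6, 250 bases before to 50 after the start) were found for 69 of the 78 members. Of 10 patterns searched on both strands, 3 were the motif of NRF1, a regulator of nuclear genes for mitochondria (GCGC, any base N, then TGCGC), the ETS family motif bound by GABP among others (CCGGAAG) and the YY1 motif (AAGATGGC). NRF1 letters were found in 13 members (18.8%), against 5.19% of 27025 genes with a promoter and 10.3% of those tested here. ETS letters were in 26 (37.7%, against 9.93% and 18.6%), and YY1 letters in 12 (17.4%, against 3.19% and 4.83%). At least 1 of the 3 was in 43 members (62.3%), against 16.4% of all genes and 29.7% of those tested. These shares are a description, the promoters were not matched for base composition, and a match is not a binding site.

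The other patterns are given with their share of all promoters and then of tested genes. GGGCGG was in 34 members (49.3%), above the 38.2% of all promoters and below the 64.1% of tested genes. CCAAT was in 27 (39.1%, against 41.1% and 42.3%) and TATAAA in 5 (7.25%, against 15.7% and 9.40%). CACGTG was in 5 (7.25%, against 8.09% and 11.2%) and TGACGTCA in 2 (2.90%, against 2.03% and 3.27%). TGCGCA, which can overlap the NRF1 motif, was in 21 (30.4%, against 8.79% and 14.6%), and ACTTCCG, which can overlap the ETS motif, in 17 (24.6%, against 7.20% and 13.6%). Members with any of the 3 first motifs had a median difference of 0.68 from CMP and 1.21 from LMPP, and the 26 without had 0.61 and 1.06. By single motif, the 13 members with NRF1 letters had lower medians (0.57 and 0.94) than the 56 without (0.68 and 1.205). Members with ETS letters had 0.68 and 1.24, against 0.57 and 1.09 without. For YY1 the medians were 0.69 and 1.30, against 0.67 and 1.11. Whether the motifs bear on the differences was not tested.

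Printed here, 5′ to 3′ on the gene's strand, is the stretch within 150 bases before the RefSeq start site that holds no exon of the GENCODE annotation. It is shown for Mrpl33 and Mrpl12, the genes with the largest differences from CMP and LMPP, and for 3 of the genes that passed in neither comparison, with NRF1, ETS and YY1 letters in capitals. All 5 are on the plus strand, at chr5:31613801-31613938 (Mrpl33), chr11:120484487-120484612 (Mrpl12), chr14:54426759-54426908 (Mrpl52), chr7:142532882-142533011 (Mrpl23), chr3:94443186-94443317 (Mrpl9). The stretches of Mrpl33 and Mrpl23 lie inside the gene spans given above, so they are not upstream of the whole annotated gene.
Mrpl33: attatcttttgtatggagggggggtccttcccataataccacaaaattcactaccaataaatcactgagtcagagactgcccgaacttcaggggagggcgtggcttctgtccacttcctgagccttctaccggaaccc
Mrpl12: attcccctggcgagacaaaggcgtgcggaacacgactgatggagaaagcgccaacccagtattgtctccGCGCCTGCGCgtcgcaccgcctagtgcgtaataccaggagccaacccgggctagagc
Mrpl52: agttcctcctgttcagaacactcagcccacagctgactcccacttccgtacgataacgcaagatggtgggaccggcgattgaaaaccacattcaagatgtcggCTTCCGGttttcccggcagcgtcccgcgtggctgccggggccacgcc
Mrpl23: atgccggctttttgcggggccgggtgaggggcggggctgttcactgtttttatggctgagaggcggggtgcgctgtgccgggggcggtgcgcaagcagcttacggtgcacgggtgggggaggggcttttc
Mrpl9: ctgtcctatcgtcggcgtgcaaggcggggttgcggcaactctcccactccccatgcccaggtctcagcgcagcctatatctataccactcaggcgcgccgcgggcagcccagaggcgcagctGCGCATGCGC
Mrpl12 had an NRF1 match starting 81 bases before the start, and Mrpl33 had none of these letters in the stretch. Among the others, Mrpl52 had an ETS match at 47 bases, Mrpl9 an NRF1 match at 28 bases, and Mrpl23 none. In the whole window of 300 bases used for the counts, Mrpl33 also had an ETS match, outside the printed stretch, so of these 5 genes only Mrpl23 had none of the 3 motifs.

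CMP and LMPP have 1 library each, so they were compared as ratios with exact 95% intervals that cover counting error only. The summed level was 1.18 times as high in CMP (1.17 to 1.18) by total UMIs and 1.46 times by TMM. Of the 78 genes, 68 had a ratio above 1 by total UMIs and 76 by TMM. A ratio above 1.25, a limit set after the values were seen, was found in 21 members by total UMIs, where 17.7% of all genes had one, and in 67 by TMM, where 32.4% did. Below the reverse of that limit lay 2 members by total UMIs (Mrps31 and the sparsely counted Mrpl53), where 50.7% of all genes lay, and 0 by TMM, where 36.1% did. The highest ratios by total UMIs were those of Mrpl37 at 1.75 (1.64 to 1.87), Mrps18b at 1.59 (1.52 to 1.65), Mrpl12 at 1.56 (1.53 to 1.59) and Mrpl4, a protein of the peptide exit tunnel, at 1.51 (1.46 to 1.56). Mrpl2 (1.47) and Mrpl54 (1.45) came next. Leaving aside Mrpl53, whose interval of 0.377 to 1.10 spans 1, the lowest were Mrps31 at 0.654 (0.621 to 0.688), Mrpl50 at 0.824 and Mrpl32 at 0.835. By TMM the members below 1 were Mrps31 (0.812) and Mrpl53 (0.806).

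Genes that rose in GMP did not all have the same course. Mrpl33 and Mrps25 had CMP over LMPP ratios of 1.01 (0.992 to 1.04) and 1.005 (0.969 to 1.04), so that by total UMIs nearly all of their difference lay between CMP and GMP. Mrpl37 and Mrpl4 differed between LMPP and CMP and did not pass between CMP and GMP by TMM.

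Large and small subunits were compared by the ratio of their summed UMIs, which does not depend on the scaling of libraries. The ratio was 1.75 in LMPP (1.74 to 1.76), 1.86 in CMP (1.85 to 1.87) and 1.84, 1.87 and 1.85 in GMP replicates 1, 2 and 3, with a GMP mean of 1.86 ± 0.017 (SD, n = 3). CMP lay within the range of the GMP libraries, and LMPP lay below all of them by more than the counting intervals. In terms of shares, Mrpl genes held 63.7% of the summed UMIs in LMPP, 65.0% in CMP and 64.8% to 65.2% in GMP. With Mrps18a and Mrps30 counted as large and Mrps36 left out, the ratios were 1.93, 2.06 and 2.04 ± 0.019 in LMPP, CMP and GMP, with LMPP again the lowest. No test of this difference was made, and 1 LMPP library cannot show how much such libraries vary. A library's ratio also averages over its cell classes, which are described below. In CMP it was 1.96 (1.92 to 1.99) in erythroid-like cells and 1.79 (1.73 to 1.86) in B cell-like cells. Within GMP it was 1.83 ± 0.013 in granulo-monocytic-like cells and 1.88 ± 0.017 in monocyte-like cells (SD, n = 3).

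**Figure D4:**
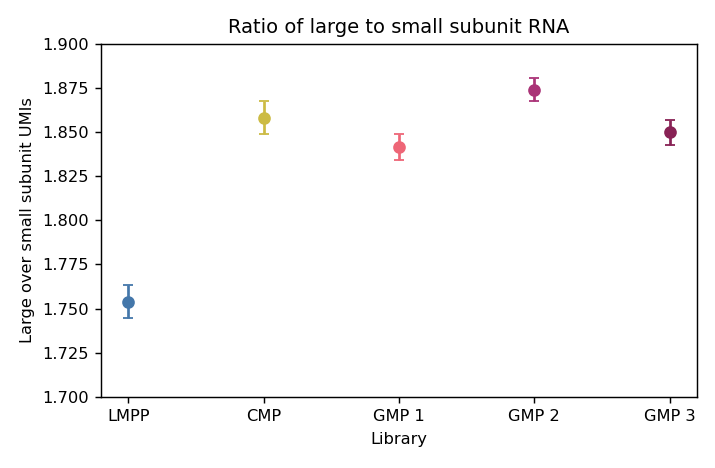
Ratio of summed Mrpl to summed Mrps UMIs in each library, with exact 95% intervals for counting error and a vertical axis that does not start at 0. The LMPP library lies at 1.75, and CMP and the 3 GMP libraries lie between 1.84 and 1.87.

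Cells were next divided into classes, with names from marker genes and with the 78 genes left out of the clustering. Each cell's UMIs were split at random into 2 parts, one to form the classes and one to measure them. Genes leading the granulo-monocytic-like clusters included Cebpe and Fcnb, which are on the neutrophil marker list. At a finer clustering resolution of 2, 309 to 368 cells per GMP library were named neutrophil-like, against 1 to 2 in the main clustering. Within GMP, the granulo-monocytic-like class had a sum of 11002 CPM ± 330 and the monocyte-like class one of 10825 ± 415 (SD, n = 3), while the basophil and mast cell-like class had 8163 ± 562 and the eosinophil-like class 8410 ± 784. In every GMP library the basophil and mast cell-like and the eosinophil-like cells lay below both of the other classes. UMIs per cell in the measured part differed in the same direction, with means of 7617, 7135, 3315 and 2983, and whether this bears on the result was not tested. S phase genes took 0.310%, 0.363%, 0.304% and 0.348% of UMIs in the same order.

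Tested against granulo-monocytic-like cells with library as a block, 75 of 77 members were lower in basophil and mast cell-like cells and 0 were higher, where 25.8% and 25.2% of the 12450 genes tested were. Unadjusted, the edgeR test also gave 75 and 0. The median was -0.65, against -0.0016 over all genes. By total UMIs 61 were lower and 1, Mrpl52, was higher, with a background of 14.4% and 36.7%. The largest differences were those of Mrpl47 (-1.11 ± 0.13), Mrps28 (-1.10 ± 0.12) and Mrps15 (-1.08 ± 0.07). Mrps15 was at 128, 140 and 131 CPM in the basophil and mast cell-like cells of replicates 1, 2 and 3 and at 236, 246 and 233 CPM in the granulo-monocytic-like cells of the same libraries. Mrps22, Mrpl19 and Mrps34 were next, between -0.95 and -0.93. Mrpl52 again stood apart, at 200.1, 184 and 159 CPM against 164, 141 and 143 CPM.

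In eosinophil-like cells, 115 to 161 per library, 66 of 77 members were lower than in granulo-monocytic-like cells and 0 higher, where 16.6% and 11.8% of all genes were. Unadjusted, the edgeR counts were 69 and 0. The median was -0.79, against 0.0042 over all genes. By total UMIs 36 were lower and 2 higher (Mrpl10 and Mrps2), with a background of 5.82% and 27.3%. Mrpl27 (-1.39 ± 0.23), Mrpl22 (-1.37 ± 0.20) and Mrpl17 (-1.36 ± 0.13) differed most. Mrpl17 was at 122, 101 and 85.5 CPM in eosinophil-like cells and at 196, 202 and 186 CPM in granulo-monocytic-like cells.

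Monocyte-like cells differed little. Of 77 members 46 were lower and 2 (Mrpl4 and Mrpl33) higher than in granulo-monocytic-like cells, where 22.2% and 17% of all genes were, but the median was only -0.13, against -0.02 over all genes. By total UMIs 14 were lower and 12 higher, with a background of 11.5% and 28.6%, and the median was -0.02 against 0.09 over all genes. Without the library block 0 passed in either direction by the edgeR test, with 13 lower and 0 higher at an unadjusted p under 0.05. The largest differences were those of Mrpl19 (-0.32 ± 0.04), Mrpl51 (-0.31 ± 0.05) and Mrps12 (-0.30 ± 0.05). Mrpl4 was at 149, 116 and 127 CPM in monocyte-like cells and at 113, 97.2 and 100.2 CPM in granulo-monocytic-like cells, higher in all 3 libraries (0.21 ± 0.04). Mrpl33 passed narrowly (0.12 ± 0.05, adjusted p = 0.0298) and did not pass without GMP replicate 2 (adjusted p = 0.13) or replicate 3 (adjusted p = 0.106).

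**Figure D5:**
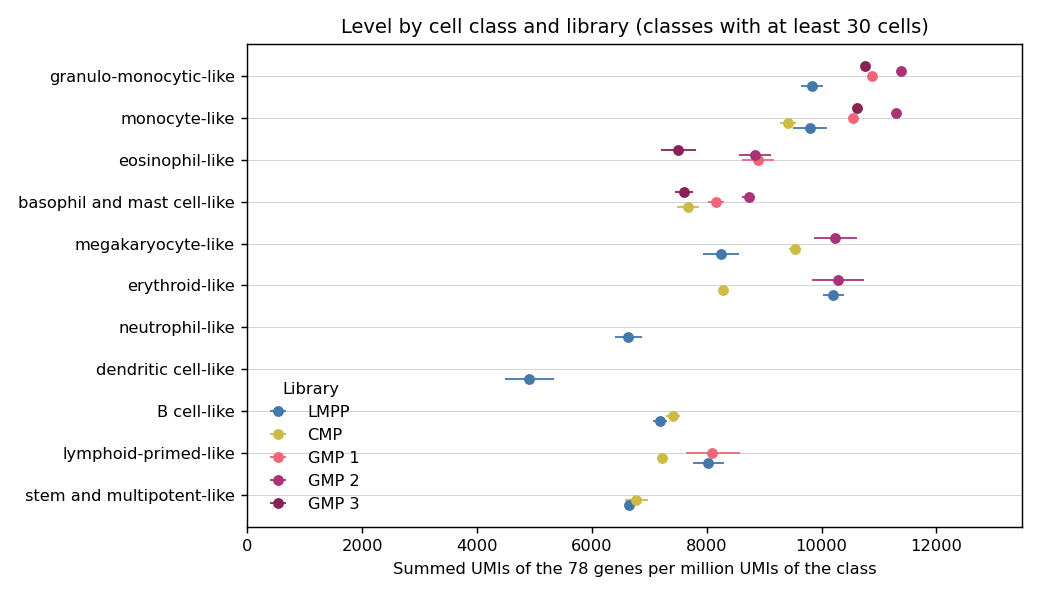
Summed level of the 78 genes in each named cell class with at least 30 cells, by library, with exact 95% counting intervals, scaled to the total UMIs of the class. Cells in clusters without a name are not shown. Granulo-monocytic-like and monocyte-like cells lie at the right in the 3 GMP libraries, stem and multipotent-like cells lie near 6647 in LMPP, and basophil and mast cell-like and eosinophil-like cells lie between.

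The other libraries held some of the same classes, and their values are given without a test. In LMPP, 6690 stem and multipotent-like cells had a sum of 6647 CPM (6620 to 6674), while 94 granulo-monocytic-like cells had 9841 CPM (9650 to 10034), 49 monocyte-like cells 9794 CPM and 97 erythroid-like cells 10209 CPM. These 3 small classes of the LMPP library lay nearer to GMP than to the rest of LMPP. Their UMIs per cell in the measured part were also higher, at 10893, 8985 and 11800, against 5157 in the stem and multipotent-like cells. Whether this depth bears on their levels was not tested. Other small LMPP classes lay nearer to the rest of LMPP. There, 37 megakaryocyte-like cells had 8242 CPM and 45 lymphoid-primed-like cells 8027 CPM, at 8647 and 9744 UMIs per cell in the measured part. B cell-like cells had 7179 CPM, neutrophil-like cells 6631 CPM and 31 dendritic cell-like cells 4902 CPM. Within CMP, 2028 lymphoid-primed-like cells had 7213 CPM, 1386 erythroid-like cells 8288 CPM, 491 megakaryocyte-like cells 9543 CPM, 204 monocyte-like cells 9417 CPM and 159 basophil and mast cell-like cells 7677 CPM. The lymphoid-primed-like label depended on how finely the cells were clustered. It covered 3590 CMP cells at a coarser resolution of 0.5 and 1098 at a finer one of 2. Stem and multipotent-like cells in CMP numbered 104 in the main clustering and 1702 at the finer resolution. The level given for this class therefore holds for the main clustering only. Only 3 CMP cells were granulo-monocytic-like in the main clustering. A library's sum thus mixes classes whose own levels differed by more than their counting intervals.

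Clusters within a class differed in the summed level, and the cluster with the larger share of mitosis genes was often, but not always, the higher. In granulo-monocytic-like cells, the cluster with 0.680% to 0.701% of UMIs from G2 and M phase genes had 11351, 11615 and 10986 CPM in the GMP replicates. Its partner with 0.322% to 0.367% had 10447, 11036 and 10472 CPM. Of the 3 monocyte-like clusters, the one with 0.734% to 0.813% from these genes had 10958, 11539 and 10847 CPM, and the one with 0.351% to 0.384% had 10470, 11137 and 10424 CPM. The third monocyte-like cluster, with 0.653% to 0.715%, was the lowest at 7611, 8399 and 7680 CPM, and its cells had only 1334 to 2441 UMIs on average in the measured part. In LMPP, the stem and multipotent-like cluster led by mitosis genes such as Aspm and Mki67 (1.39% of UMIs) had 7252 CPM, and one led by Hlf and Txnip (0.283%) had 5932 CPM. Another, with fewer UMIs per cell and 0.254%, had 7072 CPM. In CMP, the erythroid-like cluster with 1.21% had 9455 CPM and the one with 0.306% had 7734 CPM. In basophil and mast cell-like cells, the cluster with 0.512% to 0.673% had 8767, 9056 and 8278 CPM in the GMP replicates. The one with 0.296% to 0.318% had 6672, 7197 and 6303 CPM, at 1888 to 2313 UMIs per cell in the measured part. In both of these pairs the lower cluster also had fewer UMIs per cell. So did the lower granulo-monocytic-like cluster (6306 to 7175, against 7774 to 9811 in the measured part). The same held for the first monocyte-like pair (6217 to 7093 against 8544 to 10088). In LMPP the Hlf and Txnip cluster had 5782, against 7823 in the Aspm and Mki67 cluster. Whether depth bears on these levels was not tested. These are descriptions of clusters, with no test.

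The monocyte-like class could be compared between GMP and CMP, with 204 CMP cells, 173 of them in a cluster that held 997, 1471 and 1574 GMP cells. A second cluster of the class held 582, 1437 and 1291 GMP cells and 14 CMP cells. Of 77 members 0 passed in either direction by the edgeR test, where 0.603% of 13442 genes were higher and 0.342% lower. Unadjusted, 29 were higher and 0 lower, which cannot be set against these adjusted shares. By total UMIs 0 passed in either direction, where 0.484% of genes were higher and 0.394% lower, and 13 members were higher and 0 lower unadjusted. The members' median was 0.31, against 0.03 over all genes, and Mrpl51 had the largest difference (0.75 ± 0.17, adjusted p = 0.092). Without GMP replicate 1, 28 members were higher and 0 lower. Over all genes the counts also rose, to 915 higher and 806 lower of 13735, against 81 and 46 of 13442 with all replicates. The members' median was 0.32 in that fit. The summed level of the class was 9417 CPM in CMP (9281 to 9555) and 10555, 11303 and 10618 CPM in GMP.

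Genes that work with the mitochondrial ribosome were counted from fixed lists, with no test between a list and the members. The shares of all genes to set beside them are, by TMM, 13.6% higher and 19% lower than in CMP and 26% and 31.4% than in LMPP, and by total UMIs 7.39% and 30.3%, and 11.1% and 51.9%. Of 5 ribosomal proteins with other symbols, 3 were higher in GMP than in CMP and 4 than in LMPP, with medians of 0.54 and 1.20. By total UMIs 1 and 3 were higher. Chchd1 was at 135 CPM in LMPP, 147 CPM in CMP and 191 to 228 CPM in GMP. Of 11 translation factors tested, 2 were higher than in CMP and 6 than in LMPP, with medians of 0.19 and 0.52. By total UMIs the medians turned to -0.11 and -0.09, with 1 higher and 3 lower than in LMPP. Against CMP 0 passed in either direction by the edgeR test on that scale, and 0 at an unadjusted p under 0.05. Tufm, the elongation factor that delivers transfer RNAs, was at 32.6 CPM in LMPP, 57.9 CPM in CMP and 56.6 to 58.7 CPM in GMP. It differed by 1.43 ± 0.14 from LMPP and did not pass against CMP (0.29 ± 0.13, adjusted p = 0.112).

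Of 25 genes of assembly and ribosomal RNA modification, 3 were higher than in CMP and 0 lower, with 12 higher and 3 lower than in LMPP. By total UMIs 1 was higher and 5 lower than in CMP, and 4 higher and 8 lower than in LMPP, so this list's balance turned with the scaling. At an unadjusted p under 0.05 in the edgeR test, 5 were higher and 2 lower than in CMP by TMM. Mpv17l2, an assembly factor, was at 41.5 CPM, 59.6 CPM and 82.4 to 97.1 CPM in LMPP, CMP and GMP. Of 17 mitochondrial transfer RNA synthetases, 1 (Yars2) was higher than in CMP and 6 than in LMPP. By total UMIs the edgeR test gave 0 higher and 2 lower than in CMP (0 and 4 unadjusted), and 1 higher and 6 lower than in LMPP. Of 9 genes of mitochondrial transcription, 3 were higher and 1 lower than in CMP, and 3 and 2 than in LMPP. By total UMIs these counts were 1 and 1, and 1 and 4. Slirp, which stabilises mitochondrial messenger RNAs, was higher (102 CPM, 92.3 CPM and 155 to 173 CPM, 1.15 ± 0.13 from CMP), and Mterf2 was lower (8.28 CPM, 4.37 CPM and 1.64 to 1.90 CPM, -0.95 ± 0.21 from CMP). Tfam, which packages and transcribes the mitochondrial genome, was at 62.4 CPM, 52.0 CPM and 38.2 to 46.4 CPM and did not pass by TMM.

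RNA of the 13 mitochondrially encoded proteins, which this ribosome translates, was scattered over the GMP libraries. By total UMIs it summed to 12260 CPM in LMPP, 9669 CPM in CMP and 6954, 10946 and 12093 CPM in GMP replicates 1, 2 and 3. By TMM it summed to 9079 in LMPP, 8898 in CMP and 8168, 12331 and 13411 in GMP, so that GMP over LMPP turned from 0.815 to 1.24 with the scaling. By TMM 2 of 13 genes were higher and 0 lower than in CMP, and 2 higher and 2 lower than in LMPP. By total UMIs these counts were 2 and 1, and 0 and 5. All 4 pairs of counts were the same at an unadjusted p under 0.05 in the edgeR test. GMP replicate 1 was the lowest in mitochondrially encoded RNA on both scales, while its member sum lay between those of the other GMP libraries by total UMIs and was the highest by TMM.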

How the data were processed

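The deposited values are UMI counts for each gene in each barcode. Cell Ranger 3.1.0, Seurat 3.1.1 and mm10 are named per the submitters' processing notes, and Cell Ranger 6.1.1 per the file headers. All 55450 identifiers match GENCODE release M21. Intervals cover counting error only.

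Kept barcodes had at least 500 genes, at least 1000 UMIs and at most 10% mitochondrial UMIs, and doublets called from simulated ones at 0.8% per 1000 barcodes were left out. Library sums entered edgeR 4.0.16 (limma 3.58.1, R 4.3.3), using glmQLFTest, TMM factors, filterByExpr, a prior count set to 2, and Benjamini-Hochberg adjusted p-values over all genes tested, with 2 residual degrees of freedom. Clustering used the part of the UMIs that was not measured, 2000 variable genes, 30 principal components, 20 neighbours and the Leiden method at resolution 1 (leidenalg 0.10.2). A class needed at least 3 of its markers raised 1.5-fold at 20 CPM or more, and classes tested within GMP had at least 50 cells in each library. Same-numbered class sums come from the same library, which is the source of the block. The scripts were checked on simulated data.

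Genes named are the 10 with the largest changes past the threshold in each comparison of populations, the 6 most abundant, the 6 highest and 6 lowest CMP over LMPP ratios, the 6 largest changes in each direction within GMP, and up to 4 of each other list. Others were named after their values were seen. The members and lists were chosen with earlier results of these data known. Alternatives were total UMIs, DESeq2 1.42.0 size factors and Wald test, no low-count filter, all barcodes, doublets kept, thinned libraries, only the groups compared, each GMP replicate left out, Leiden resolutions of 0.5 and 2, undivided counts and no block.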

Additional observations from a re-analysis of the deposited data

How the results depend on the processing

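With total UMIs in place of TMM, the counts higher and lower became 32 and 1 for GMP against CMP, with 5 lower for GMP against LMPP, and 12 and 14 for monocyte-like cells, with 1 higher in basophil and mast cell-like cells and 2 higher and 36 lower in eosinophil-like cells. On that scale the differences of Mrpl52, Mrpl9 and Mrps6 from LMPP were -0.47, -0.56 and -0.50, and that of Mrps6 from CMP was -0.26. For Mrpl9 against CMP the difference was 0.0153 with DESeq2 size factors, 0.0154 with the Wald test and 0.0029 with no low-count filter. The log2 of the summed level in GMP over CMP was 0.39 by total UMIs, 0.70 by TMM and 0.74 with DESeq2 size factors, and over LMPP 0.63, 1.25 and 1.29. The summed CMP over LMPP ratio was 1.46 by TMM, an alternative chosen after seeing the data, where the ratios of Mrpl23, Mrpl32, Mrpl50, Mrpl9 and Mrps6 passed 1 (1.09, 1.04, 1.02, 1.06 and 1.05). It was 1.18 with all deposited barcodes and 1.18 with doublet calls kept.

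Leaving out each GMP replicate in turn gave 40 to 72 members higher and 0 to 2 lower than in CMP, and 69 to 72 higher and 0 to 1 lower than in LMPP. It gave 1 to 2 higher in monocyte-like cells and 0 to 28 higher within the shared class. Of all genes tested, 2043 to 4362 were then higher than in CMP and 4299 to 6111 than in LMPP. In monocyte-like cells 1516 to 1858 genes were higher, and within the shared class 100 to 915. The differences of Mrpl9 and Mrps6 from CMP then ranged from -0.097 to 0.104 and from -0.0333 to 0.174, and those of Mrpl23, Mrpl52 and Mrpl9 from LMPP from -0.26 to 0.0092, from -0.0099 to 0.257 and from -0.0327 to 0.166. No replicate block, that is without pairing classes by library, gave 0 higher and 0 lower in monocyte-like cells and changed neither other class by over 1.5 times. No paired analysis was possible between populations because CMP and LMPP have 1 library each. Leiden resolution 0.5 gave 1 member higher in monocyte-like cells, with Mrpl33 at -0.024, and undivided counts gave 1 higher there and 1 in eosinophil-like cells. The large to small ratio in GMP, CMP and LMPP was 2.04, 2.06 and 1.93 by structure, 1.63, 1.62 and 1.53 with the subunits of other symbols, and 1.92, 1.91 and 1.83 without the most abundant member of each subunit, with LMPP lowest each time. The cause of these changes was not tested. Counting depth leaves Mrpl53 too imprecise to compare.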
